A study of Mus musculus with 24 samples.

Results

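Ado guide 2 cells were set against Ado guide 1 cells, 2 populations of MC38, a mouse colon carcinoma line, each given a different guide RNA against the same gene. Each population had 6 libraries, so the comparison used 12 of the 24 libraries of the study. The labels give the genotype of both populations as Ado KO, and the other 2 populations, control guide 2 and control guide 1, as control. All 4 populations were grown in DMEM with 10% FCS and penicillin-streptomycin, and each was profiled untreated and after TNF for 1 h and for 6 h, with 2 libraries per population and treatment. RNA was read as 3′ tags with a QuantSeq 3′ mRNA kit, and levels are given in log2 CPM, tag counts scaled to a common library total on a log2 scale. The labels do not say whether a population was a clone or a pool, nor whether its replicates were grown apart, so a p-value here speaks only of variation among these libraries, part or all of which may be technical. The comparison asks how alike 2 populations with the same labelled genotype were, at rest and in their answer to TNF, in a study whose title concerns the evasion of immunity by tumours that lose sensitivity to TNF.

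Ado encodes cysteamine dioxygenase, an enzyme that uses oxygen to oxidise cysteamine and cysteines at the start of certain proteins, which marks those proteins for degradation. TNF binds its receptors and activates NF-kB, which switches on chemokines, survival factors and its own inhibitors within hours. Guide RNAs against 1 gene share their intended target and differ in the site they address, so differences that 2 such populations do not share are useful for judging which differences from controls go with the gene. Several of the differences found here concerned small nucleolar RNAs (snoRNAs), short nuclear RNAs that guide chemical modification of ribosomal and other RNAs and are mostly cut from the introns of host genes. The kit is made for mRNA, and how it captures snoRNAs, mitochondrial tRNAs and histone RNAs was not tested. Values of these classes are therefore tag levels and may not follow the amount of RNA.

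Tag depth, estimated from the lowest values, was 4280000 to 5530000 tags in Ado guide 2 libraries and 5110000 to 6630000 in Ado guide 1 libraries, and every value is limited by these counts. Guide 1 libraries were thus on the whole deeper, and the part of depth in the results was not tested. Vim, a mesenchymal filament gene, was high and Krt8, an epithelial keratin gene, was near or below 0 log2 CPM, while Epcam and Col1a1 were not analysed here. Summed over the 9 epithelial and intestinal genes tested, the level was 269 to 344 CPM in the 12 Ado-guide libraries. The summed level of 7 immune cell markers was 74.1 CPM in Ado guide 1 untreated replicate 1 and 14.2 to 35.6 CPM in the other 11 Ado-guide libraries, and its part in the results was not tested. Over all 12, 5 endothelial markers summed to 25.2 to 42.4 CPM and 4 fibroblast markers to 17.7 to 29.9 CPM. Libraries of guide 2 and guide 1 under the same treatment correlated at r = 0.962 to 0.975 across genes, replicate pairs at 0.968 to 0.975, and control guide 2 with control guide 1 at 0.959 to 0.970, where genes are not independent replicates.

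Before any comparison of populations, 3 libraries given TNF for 1 h stood apart from their own replicates. Among 5695 genes averaging at least 4 log2 CPM, 19 were over 1 log2 unit lower in Ado guide 2 TNF 1 h replicate 1 than in replicate 2, and 2 the other way. In Ado guide 1 TNF 1 h, 87 were that much lower in replicate 2 and 0 in replicate 1. In control guide 1 TNF 1 h, 49 were lower in replicate 1 and 29 in replicate 2, while the other 9 groups had 0 to 3 such genes either way. Of the 87 genes, 82 had their lowest value of all 24 libraries in Ado guide 1 TNF 1 h replicate 2. The 87 were picked as low in that library, so this count follows largely from the choice and is no separate evidence. Cyr61, which encodes a secreted matrix protein, had 5.40 and 6.42 log2 CPM in Ado guide 2 cells at 1 h (replicates 1 and 2), against 6.54 and 1.60 in Ado guide 1 cells. Snrpf, a component of the spliceosome, had 7.66 and 8.57 log2 CPM in Ado guide 2 cells at 1 h, against 8.43 and 5.41 in Ado guide 1 cells. Both genes were chosen after their values were seen. In each gene the low library was 1 of a pair, so neither difference is one between guides. Of the same 87 genes, 76 were lower to any extent in the Ado guide 2 library that stands apart, and 83 in control guide 1 TNF 1 h replicate 2, than in their replicates. The share of all 5695 genes lower to any extent was not computed, so these counts have no background beside them. That control library was taken as the third, although more genes were over 1 log2 unit lower in its replicate. The cause was not tested. Results that rest on the spread between replicates are therefore also given without these 3 libraries, or without all 8 TNF 1 h libraries, both alternatives chosen after the data were seen.

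**Figure D1:**
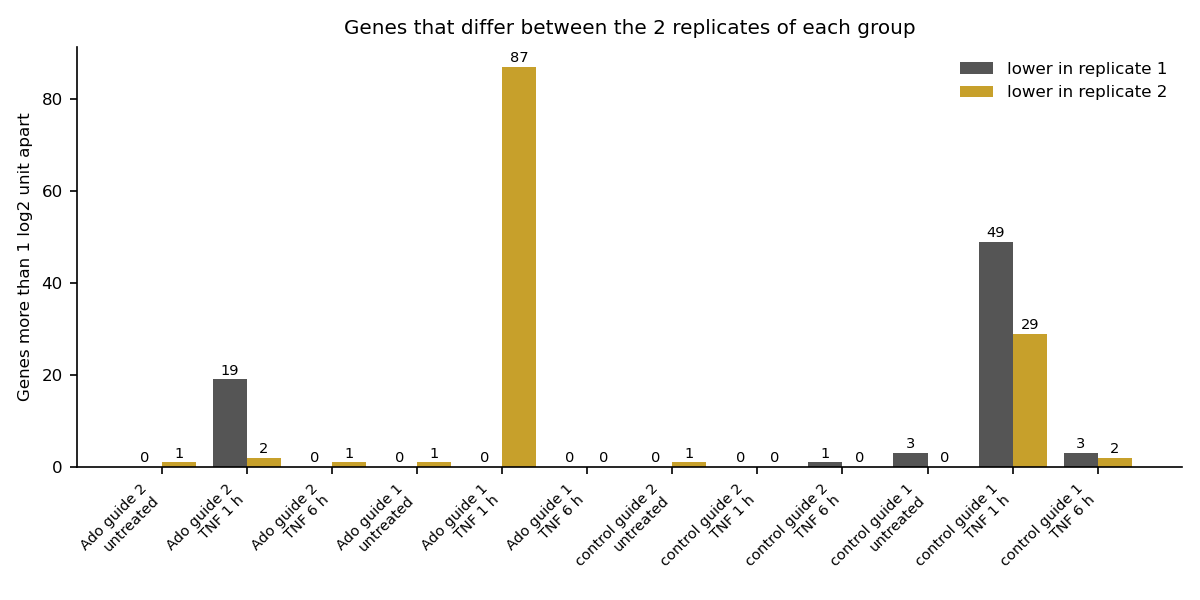
Number of genes (vertical axis) that differ by over 1 log2 unit between the 2 replicates of each population and treatment (horizontal axis), among 5695 genes averaging at least 4 log2 CPM. Dark bars count genes lower in replicate 1 and light bars genes lower in replicate 2. The counts are 19 in Ado guide 2 TNF 1 h, 87 in Ado guide 1 TNF 1 h and 49 and 29 in control guide 1 TNF 1 h, against 0 to 3 elsewhere.

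Ado itself, on chromosome 10 (chr10:67544511-67548955, minus strand, GRCm38), was detected in every library. Its level was 5.27 and 5.27 log2 CPM in untreated Ado guide 2 cells, 5.36 and 5.14 at 1 h and 5.00 and 5.38 at 6 h. In Ado guide 1 cells it was 5.43 and 5.43 untreated, 5.53 and 5.36 at 1 h and 5.43 and 5.37 at 6 h. Ado averaged 5.24 ± 0.14 log2 CPM in Ado guide 2 libraries and 5.42 ± 0.06 in Ado guide 1 libraries (SD, n = 6 each), next to 5.26 in control guide 2 and 5.12 in control guide 1 libraries. The difference of guide 2 minus guide 1 was -0.19 ± 0.08 (log2, SE), with a limma adjusted p of 0.498. Against the mean of the control guides, Ado was 0.04 higher in guide 2 cells (log2, adjusted p = 0.794, limma) and 0.23 higher in guide 1 cells (95% interval 0.09 to 0.37, adjusted p = 0.0405, limma). A 3′ tag outside the edited site reads a transcript whether or not it is edited, so the level checks neither the edit nor the label.

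Averaged over the 3 treatments, few genes differed between Ado guide 2 and Ado guide 1 cells, and those that did were 7 coding genes, 5 snoRNAs and the host gene of 1 of them, 5 processed pseudogenes, 2 annotated miRNAs and a mitochondrial tRNA. Of 13272 genes tested, limma called 21 (0.158%) at a Benjamini-Hochberg adjusted p below 0.05, of which 16 (0.121%) were higher and 5 (0.0377%) lower in guide 2 cells. Those with numbered Gm names or pseudogene names fall outside the rule for named genes. At an unadjusted p below 0.05, 601 genes were higher (4.53%) and 566 lower (4.26%). None of the 5695 genes averaging at least 4 log2 CPM had a difference over 1 log2 unit. Their median absolute difference was 0.07 log2 units, 95% were within 0.22, and for 5690 of them (99.9%) the 95% interval of the difference lay within 1 log2 unit either way. For 5524 (97.0%) it lay within 0.5 log2 units.

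**Figure D2:**
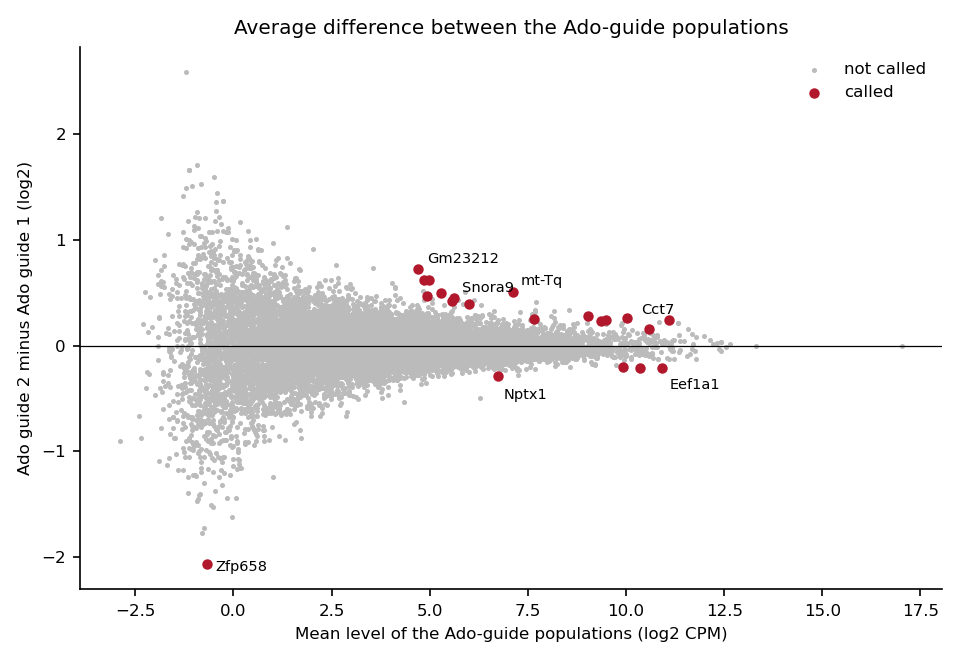
Average difference of Ado guide 2 minus Ado guide 1 over the 3 treatments (vertical axis, log2) against the mean level of both populations (horizontal axis, log2 CPM) for 13272 genes. Red points are the 21 called genes, 16 above 0 and 5 below 0. Above a level of 4 log2 CPM no gene is over 1 log2 unit from 0, and the called gene with the widest difference, Zfp658, is among the lowest levels.

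The call is sensitive to which libraries and genes are fitted and to how the spread is estimated. Where a treatment is left out, the average covers only those that remain. The call is 0 with small RNA, histone and mitochondrial genes left out. It falls to 0 when only the 12 Ado-guide libraries are fitted, when the spread is not allowed to vary with level, when untreated libraries are left out, or without Ado guide 2 untreated replicate 1 or Ado guide 2 TNF 6 h replicate 1, and comes to 151 genes (105 higher, 46 lower) without the 3 TNF 1 h libraries that stand apart, 20 of the 21 among them.

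Of the 21 called genes 5 were snoRNAs, all higher in guide 2 cells, and their sequences are shown since near-identical copies bear on which gene a tag came from. All are GENCODE M21 transcripts on GRCm38, written 5′ to 3′. In the first 3, capitals mark ACA ahead of the last 3 bases, the tail of H/ACA snoRNAs. In the next 2, capitals mark TGATGA within the first 18 bases and CTGA starting in the last 15, the motifs of C/D snoRNAs. Searched on the transcript's own strand, ACA stood there in 98 of the 216 snoRNAs tested (45.4%), the TGATGA and CTGA pair in 63 (29.2%) and both in 3 (1.39%), so these letters are common in the class.
Snora9 (chr11:6528033-6528165, minus strand): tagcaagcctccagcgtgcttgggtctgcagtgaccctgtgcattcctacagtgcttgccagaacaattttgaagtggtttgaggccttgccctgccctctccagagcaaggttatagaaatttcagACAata
Gm25291 (chr11:51737779-51737922, minus strand): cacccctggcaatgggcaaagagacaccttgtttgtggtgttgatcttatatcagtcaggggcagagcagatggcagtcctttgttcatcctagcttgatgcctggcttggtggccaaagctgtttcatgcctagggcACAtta
Gm24130 (chr13:65158258-65158408, plus strand): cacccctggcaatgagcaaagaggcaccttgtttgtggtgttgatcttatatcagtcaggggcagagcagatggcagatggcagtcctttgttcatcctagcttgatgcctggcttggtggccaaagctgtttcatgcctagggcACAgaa
Gm23212 (chr1:161036682-161036741, plus strand): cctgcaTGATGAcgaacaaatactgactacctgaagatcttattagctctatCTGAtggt
Gm24452 (chr19:8724531-8724602, plus strand): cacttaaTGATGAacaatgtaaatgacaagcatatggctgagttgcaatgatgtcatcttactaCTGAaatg
Gm25291 and Gm24130 match in 140 of 151 alignment columns (92.7%), so tags of 1 can be counted for the other and their values are not independent. Gm25291 lies in Sec24a, and 24 other genes have a transcript like it (at least 85% identity over at least 50 bases). The closest is a retained-intron transcript of Eif4a1, 97.9% identical over 142 bases, so which gene its tags came from is uncertain.

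Gm23212, a snoRNA whose whole sequence also stands in a retained-intron transcript of its host Gas5, was the snoRNA with the smallest adjusted p. It had 4.82 and 4.89 log2 CPM in untreated guide 2 cells, 5.53 and 5.07 at 1 h and 5.23 and 4.89 at 6 h. In guide 1 cells it had 3.80 and 3.95 log2 CPM untreated, 4.81 and 4.69 at 1 h and 4.68 and 4.18 at 6 h. Every guide 2 library was above every guide 1 library. Its mean was 5.07 ± 0.27 log2 CPM in guide 2 and 4.35 ± 0.43 in guide 1 libraries (SD, n = 6 each), a difference of 0.72 ± 0.11 (log2, SE) or 1.65-fold, with a limma adjusted p of 0.00841. Libraries of the 2 populations stood wholly apart in 43 of 13272 genes (0.324%), 11 with guide 2 higher (0.0829%) and 32 with guide 2 lower (0.241%), and of the 21 called genes Gm23212 and Zfp658 were among them. The call for Gm23212 held in 10 of 12 fits that each left out 1 Ado-guide library.

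Snora9, an H/ACA snoRNA, had 5.57 and 5.43 log2 CPM in untreated guide 2 cells, 6.04 and 5.73 at 1 h and 6.18 and 6.05 at 6 h. In guide 1 cells it had 4.56 and 4.53 log2 CPM untreated, 5.46 and 5.56 at 1 h and 6.30 and 5.85 at 6 h. The populations were apart untreated and at 1 h and overlapped at 6 h. Its average difference was 0.45 ± 0.09 (log2, SE, adjusted p = 0.0450, limma). Snhg15, its long noncoding host gene, holds all 133 bases of Snora9 in a transcript of its own, so their tags cannot be told apart, and averaged 6.20 ± 0.27 log2 CPM in guide 2 and 5.81 ± 0.56 in guide 1 libraries (SD, n = 6 each). Gm25291 averaged 5.30 ± 0.18 log2 CPM in guide 2 and 4.67 ± 0.50 in guide 1 libraries (SD, n = 6 each), and its difference was 0.62 ± 0.12 (log2, SE, adjusted p = 0.0394, limma). Gm24452, which stands in a retained-intron transcript of Snhg1, averaged 5.54 ± 0.23 log2 CPM in guide 2 and 5.04 ± 0.45 in guide 1 libraries (SD, n = 6 each). It was the 1 called gene that lost its call without the 3 libraries that stand apart.

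mt-Tq, the mitochondrial tRNA for glutamine, was higher in guide 2 cells. Its sequence, on the minus strand of the mitochondrial genome, is shown because it has no similar transcript in the annotation, although tags from RNA of the opposite strand cannot be told apart where counting by strand is not stated.
mt-Tq (chrM:3772-3842, minus strand): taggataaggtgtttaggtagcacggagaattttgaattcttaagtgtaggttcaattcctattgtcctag
Its level was 7.58 and 7.23 log2 CPM in untreated guide 2 cells, 7.77 and 7.35 at 1 h and 7.20 and 7.08 at 6 h. In guide 1 cells it was 6.76 and 6.57 log2 CPM untreated, 7.12 and 7.17 at 1 h and 6.96 and 6.55 at 6 h. Guide 2 was above guide 1 within each treatment, while the lowest guide 2 value lay inside the range of guide 1. The means were 7.37 ± 0.26 and 6.85 ± 0.27 log2 CPM in guide 2 and guide 1 libraries (SD, n = 6 each), and the difference was 0.51 ± 0.08 (log2, SE, adjusted p = 0.00841, limma). Of the 20 mitochondrial tRNAs tested, mt-Tq was the 1 called, while 0.121% of all genes were called higher. At an unadjusted p below 0.05, 7 were higher and 0 lower, beside 4.53% and 4.26% of all genes. The median difference of these 20 tRNAs was 0.36 log2 units, beside 0.00 over all genes tested. Together they took 0.0412 and 0.0366% of all CPM in untreated guide 2 libraries, against 0.0255 and 0.0249% in guide 1 libraries. At 1 h they took 0.0481 and 0.0374% in guide 2, against 0.0346 and 0.0337% in guide 1 libraries, and at 6 h 0.0354 and 0.0314% against 0.0307 and 0.0240%. The guide 2 libraries were above those of guide 1 within each treatment, while untreated control guide 1 libraries, at 0.0407 and 0.0373%, were near the untreated guide 2 libraries and control guide 2 libraries, at 0.0264 and 0.0280%, near those of guide 1. mt-Tn, the tRNA for asparagine, missed the threshold at 0.73 ± 0.16 (log2, SE, adjusted p = 0.0505, limma), though its guide 2 libraries (3.75 to 3.98 log2 CPM) all lay above those of guide 1 (2.36 to 3.73). Guide 2 libraries lay wholly above guide 1 libraries in 11 of 13272 genes (0.0829%). The 13 mitochondrial mRNAs had a median difference of 0.00, with 0 called by limma and 1 higher and 0 lower at the unadjusted threshold.

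Among coding genes, Cct7, Reep4 and Ccdc25 were higher in guide 2 cells and Eef1a1, Nptx1 and Zfp658 lower. Cct7, a subunit of the CCT chaperonin that folds actin and tubulin, averaged 10.67 ± 0.03 log2 CPM in guide 2 and 10.51 ± 0.11 in guide 1 libraries (SD, n = 6 each). Its difference was 0.16 ± 0.03 (log2, SE, adjusted p = 0.0450, limma), and it was the 1 member called of the 8 CCT subunits, whose median was -0.01. Over all genes 0.121% were called higher and the median was 0.00. Reep4, which shapes the endoplasmic reticulum and clears it from chromosomes in mitosis, averaged 7.78 ± 0.13 log2 CPM in guide 2 and 7.54 ± 0.10 in guide 1 libraries (SD, n = 6 each). Ccdc25, a DNA-binding membrane protein, averaged 5.78 ± 0.18 log2 CPM in guide 2 and 5.36 ± 0.23 in guide 1 libraries (SD, n = 6 each). In each of these 3 genes the highest guide 1 library was above the lowest guide 2 library. The differences in Cct7 and Reep4 between the control-guide populations were called with the opposite sign to that between Ado guides, and since guide numbers are arbitrary that sign carries no meaning.

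Eef1a1 (chr9:78478449-78489151, minus strand), the elongation factor that brings tRNAs to the ribosome, had 10.74 and 10.84 log2 CPM in untreated guide 2 cells, 10.70 and 10.77 at 1 h and 10.89 and 10.86 at 6 h. In guide 1 cells it had 11.14 and 11.32 log2 CPM untreated, 10.91 and 10.86 at 1 h and 10.82 and 10.98 at 6 h. The populations stood apart untreated and at 1 h and overlapped at 6 h. The average difference was -0.21 ± 0.04 (log2, SE, adjusted p = 0.0394, limma). Gm26377 and Gm26384, annotated as miRNAs and also called lower, are no separate evidence: Gm26377 lies within Eef1a1 and all of its 108 bases stand in 1 of its transcripts, and Gm26384 is 98.2% identical to Eef1a1 over 110 bases. Nptx1, a secreted pentraxin known from neurons, averaged 6.59 ± 0.15 log2 CPM in guide 2 and 6.88 ± 0.25 in guide 1 libraries (SD, n = 6 each), and its difference was -0.29 ± 0.06 (log2, SE, adjusted p = 0.0450, limma). Zfp658, a zinc finger gene, was near the detection limit in both, with -3.35 to -0.69 log2 CPM in guide 2 and -0.57 to 0.82 in guide 1 libraries, and kept its call in 0 of the 12 fits that left out 1 library.

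Another 5 called genes were processed pseudogenes, all higher in guide 2 cells. Rps18-ps1 is 98.3% identical to Rps18 over 459 bases and Gm8599 is 92.8% identical to it over 457. Their differences were 0.23 and 0.28 log2 units, while Rps18, a protein of the small ribosomal subunit, differed by 0.10 (log2, adjusted p = 0.416, limma). Gm4997, similar to Rps20, differed by 0.24, Gm19353, similar to Rpl27a, by 0.26, and Gm5909, similar to Zc3h15, by 0.47 log2 units. None of these parent genes was called, and tags of parent and pseudogene could be divided differently by the counting, so the pseudogene values are uncertain. Over the 78 ribosomal protein genes tested the median difference was 0.00, with 0 called by limma. At the unadjusted threshold 4 were higher and 10 lower, beside 4.53% and 4.26% of all genes.

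**Figure D3:**
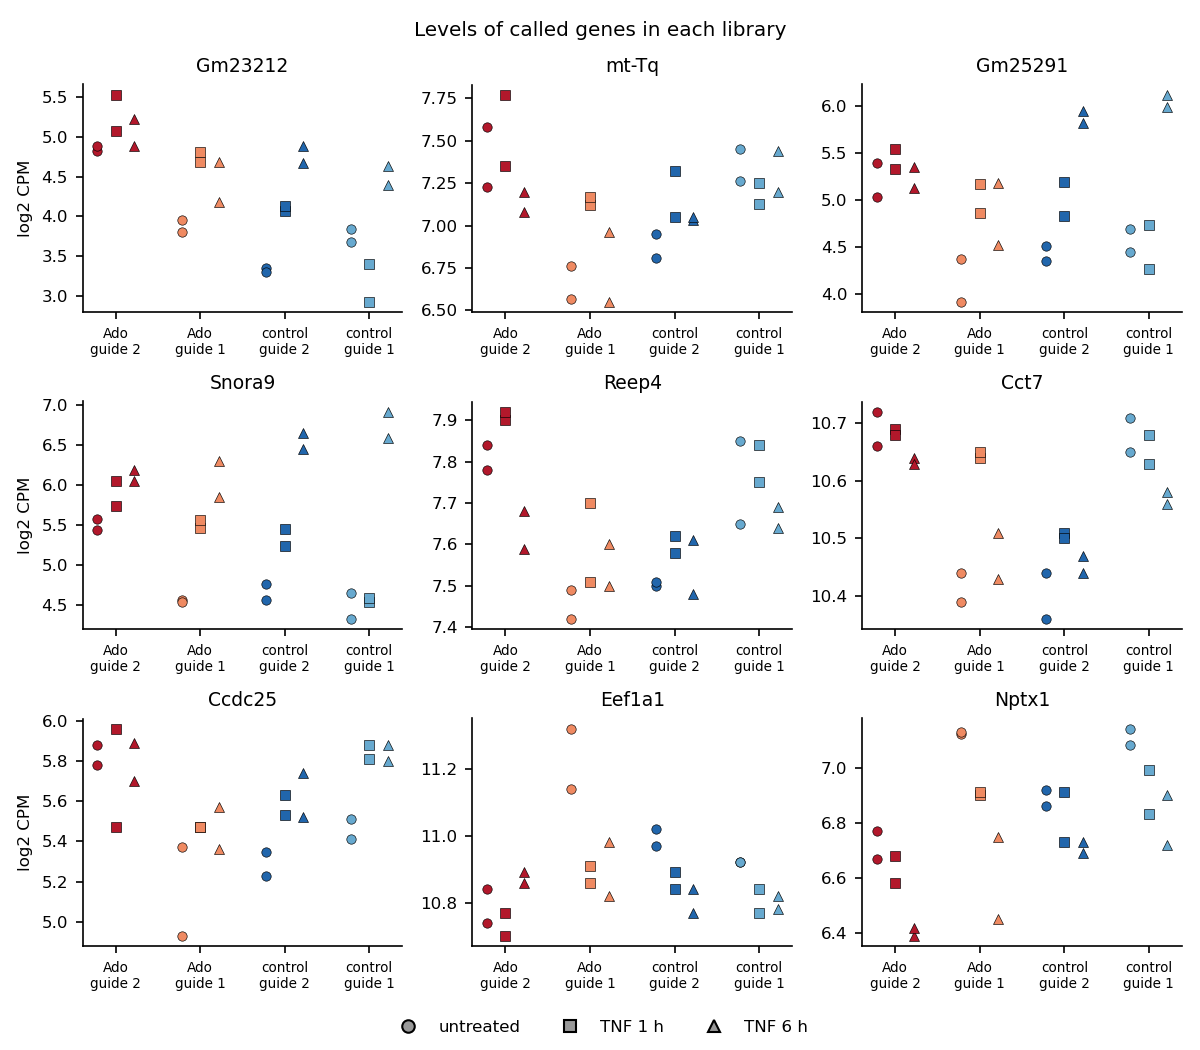
Level in each library (vertical axis, log2 CPM) of 9 genes called for the average difference, by population (horizontal axis, Ado guide 2 leftmost). Circles are untreated, squares TNF 1 h and triangles TNF 6 h libraries. Gm23212 is the panel in which all 6 guide 2 libraries lie above all 6 guide 1 libraries, from 4.82 log2 CPM up against 4.81 and below.

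Fewer genes were called between the Ado guides than between the control guides. The same contrast between control guide 2 and control guide 1 called 612 genes (4.61%), 374 higher (2.82%) and 238 lower (1.79%). At 4 log2 CPM or more the median absolute difference was 0.07 log2 units between Ado guides and 0.10 between control guides, and 0 and 4 genes differed by over 1 log2 unit. Libraries did not overlap in 43 genes (0.324%) between Ado guides and in 187 (1.41%) between control guides. No test was made of the difference between these counts.

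By treatment, more genes were called in untreated cells than at 1 h or 6 h of TNF. These calls only partly match those of the average: of 1379 processed pseudogenes 5 were called on average and 0 untreated. Untreated, 16 genes were called (0.121%), 13 higher (0.0980%) and 3 lower (0.0226%) in guide 2 cells. At TNF 1 h 0 were called by limma (928 at an unadjusted p below 0.05, 6.99%), and at TNF 6 h 1 was called (0.00753%). That 1 gene, Wdr47, had 0.60 and 1.18 log2 CPM in guide 2 cells and -1.76 and -3.35 in guide 1 cells at 6 h, near the lowest value of the table. Untreated, 7 of the 16 called genes were snoRNAs, all higher. Snora9 differed by 0.95 ± 0.16 (log2, SE, adjusted p = 0.0113, limma) and Gm24451, a snoRNA in Nop56, by 1.28 ± 0.21 (adjusted p = 0.0113, limma). Others were Eef1a1 at -0.44 ± 0.07 (adjusted p = 0.0111, limma), Tsen34, a subunit of the tRNA splicing endonuclease, at 0.47 ± 0.09 (adjusted p = 0.0283), and Isyna1, which makes inositol phosphate from glucose phosphate, at 0.65 ± 0.13 (adjusted p = 0.0446). Gm24451 was named after its values were seen.

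Summed over the class, snoRNAs took 0.284 and 0.281% of all CPM in untreated guide 2 libraries, against 0.197 and 0.197% in guide 1 libraries. At 1 h they took 0.356 and 0.296% in guide 2, against 0.274 and 0.335% in guide 1 libraries, and at 6 h 0.467 and 0.455% against 0.511 and 0.454%. The populations were thus apart untreated and overlapped at 1 h and at 6 h. Over the 216 snoRNAs the median difference was 0.58 log2 units untreated, 0.06 at 1 h and 0.01 at 6 h, beside 0.00, -0.02 and 0.00 over all genes. Untreated, 7 were called higher and 0 lower, beside 0.0980% and 0.0226% of all genes. Untreated control libraries took 0.202 and 0.174% in control guide 2 and 0.168 and 0.170% in control guide 1, so the untreated guide 2 libraries were above all 6 others. Of the 12 snoRNA host genes tested, 11 had a positive average difference and Snhg15 was the 1 called, with a median of 0.14 log2 units. Over all genes tested, 6505 of 13272 had a positive average difference and 0.121% were called higher.

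With less spread in the fit, more of the untreated difference passed. Without the 8 TNF 1 h libraries, the untreated differences keep their values and only their errors change. In that fit, with 16 libraries, 210 genes (1.58%) were called untreated, 116 higher (0.874%) and 94 lower (0.708%) in guide 2 cells, with all 16 genes called from 24 libraries among them. Of the snoRNAs, 30 of 216 were called higher and 0 lower. Of the 12 host genes 4 were called higher, among them Gas5 at 0.47 and Snhg17 at 0.84 log2 units. Host transcripts can hold the snoRNA sequence, as Gas5 holds Gm23212, so host and snoRNA calls are not separate measurements. Of the 13 mitochondrial mRNAs 4 were called lower, and of the 78 ribosomal protein genes 2 were called higher and 4 lower. Other genes called lower untreated were Ybx1, a cold-shock protein that binds mRNA, at -0.43 ± 0.06 (log2, SE, adjusted p = 0.00049, limma) and Pabpc1, the poly(A)-binding protein, at -0.32 (adjusted p = 0.00119, limma). At 6 h, 5 genes were called (0.0377%), 3 higher (0.0226%) and 2 lower (0.0151%). Averaged over untreated and 6 h, 76 were called (0.573%), 55 higher (0.414%) and 21 lower (0.158%), and 18 of them were also among the 21 called over all treatments. Leaving out 1 more Ado-guide library at a time moved the untreated count between 17 and 249.

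A guide-by-TNF difference, the TNF response of guide 2 cells minus that of guide 1 cells, was called for 0 genes in the fit to 24 libraries. At 1 h the smallest adjusted p was 0.684, with 870 genes at an unadjusted p below 0.05 (6.56%). At 6 h the smallest was 0.287, with 813 such genes (6.13%), and in the limma F test of both terms it was 0.574, with 812 (6.12%). At 4 log2 CPM or more, the 95% interval of the guide-by-TNF difference lay within 1 log2 unit either way for 5290 of 5695 genes (92.9%) at 1 h and 5323 (93.5%) at 6 h, with a median half-width of 0.42 log2 units at both times. At 1 h, genes with the smallest p included Tsen34 at -0.58 ± 0.12 and Isyna1 at -0.80 ± 0.19 (log2, SE), with an adjusted p of 0.684 each in limma. Pld1, a phospholipase gene near the detection limit, was at -3.82 ± 0.85, and the others were Gm26168 and the snoRNA Gm24453. At 6 h they were Ybx1 and 4 H2A histone genes.

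H2A histone genes, which encode a core protein of the nucleosome, fell with 6 h of TNF in guide 2 cells in this fit (14 of 20 called lower, beside 0.964% of all genes), while 1 was called higher in guide 1 cells (beside 2.95%). Their share of all CPM was 0.974 and 0.850% in untreated guide 2 libraries, against 0.734 and 0.703% in guide 1 libraries. At 1 h it was 0.982 and 0.884% in guide 2, against 0.899 and 1.05% in guide 1 libraries, and at 6 h 0.685 and 0.647% against 0.784 and 0.732%. Guide 2 libraries were thus higher untreated and lower at 6 h, and overlapped guide 1 at 1 h. In control guide 2 libraries the share was 0.756 and 0.707% untreated and 0.715 and 0.677% at 6 h. In control guide 1 libraries it was 0.693 and 0.735% untreated and 0.774 and 0.724% at 6 h. Hist1h2ai had 9.56 and 9.37 log2 CPM in untreated guide 2 cells and 9.01 and 8.91 at 6 h, against 9.10 and 9.08 untreated and 9.20 and 9.10 at 6 h in guide 1 cells. Its guide-by-TNF difference at 6 h was -0.57 ± 0.11 (log2, SE, adjusted p = 0.287, limma). The median over the 20 genes was -0.51 log2 units at 6 h, beside 0.00 over all genes. These genes are near-identical (Hist1h2ai is 99.2% identical to Hist1h2ad over 389 bases, Hist1h2ap 100% to Hist1h2ao over 452), so they share tags and do not count as 20 separate measurements. The 14 H2B histone genes had a median of 0.22 log2 units, with 0 called by limma and 0 past the unadjusted threshold. The other histone classes had negative medians, -0.96 over 12 H3 genes (11 of them negative), -0.50 over 13 H4 genes (11 negative) and -0.37 over 5 H1 genes (4 negative), with 0 called by limma and 0 past the unadjusted threshold in each class.

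Without the 8 TNF 1 h libraries the guide-by-TNF difference at 6 h was called for 33 genes (0.249%), 12 higher (0.0904%) and 21 lower (0.158%), with unchanged differences and smaller errors. Of these, 13 were H2A genes, all lower, and 5 were snoRNAs, all lower. The term subtracts the untreated difference, whose median over the snoRNAs was 0.58 log2 units, beside 0.01 at 6 h. Hist1h2ai then had an adjusted p of 0.00490 and Hist2h2aa1, at -0.64 ± 0.11 (log2, SE), the same adjusted p of 0.00490 in limma. Ybx1 had 9.94 and 10.13 log2 CPM in untreated guide 2 cells and 10.09 and 10.15 at 6 h, against 10.41 and 10.52 untreated and 9.96 and 9.94 at 6 h in guide 1 cells. The guide 2 libraries of Ybx1 were below guide 1 untreated and above at 6 h, a guide-by-TNF difference of 0.61 ± 0.09 (log2, SE, adjusted p = 0.00116, limma, 16 libraries). The control guides also crossed for Ybx1. Control guide 2 had 10.14 and 10.24 log2 CPM untreated and 10.01 and 10.12 at 6 h. Control guide 1 had 10.42 and 10.40 untreated and 9.96 and 9.81 at 6 h. The crossing is thus not particular to the Ado guides, and the control difference was not tested. mt-Atp8, a mitochondrially encoded subunit of ATP synthase, had 5.89 and 5.99 log2 CPM in untreated guide 2 cells and 7.16 and 7.12 at 6 h, against 6.45 and 6.55 untreated and 6.77 and 6.59 at 6 h in guide 1 cells. It crossed in the same way, with a difference of 1.02 ± 0.13 (log2, SE, adjusted p = 0.000104, limma, 16 libraries). For mt-Atp8, control guide 2 had 6.11 and 6.19 log2 CPM untreated and 7.02 and 6.94 at 6 h. Control guide 1 had 6.41 and 6.35 untreated and 7.11 and 7.00 at 6 h.

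In the 24-library fit the error for mt-Atp8 was 0.56 and its adjusted p 0.830, and control guide 1 TNF 1 h replicate 2, which enters that error, had 8.49 log2 CPM against 5.79 in its replicate. Ssb, which binds the ends of new small RNAs, differed by -0.77 ± 0.15 (adjusted p = 0.0163, limma, 16 libraries), and Snora47 by -0.98 (adjusted p = 0.0226, limma, 16 libraries). mt-Atp8, Hist2h2aa1, Ssb, Snora47, Pabpc1, Gas5 and Snhg17 were named after their values were seen. The count of 33 depends on single libraries: it was 1 without Ado guide 2 untreated replicate 1, 5 without Ado guide 2 TNF 6 h replicate 2 and up to 53 without others. The 13 H2A genes came to 0 and 1 without those same libraries and to 5 to 13 without each of the others. mt-Atp8 held in 8 of 8 such fits, Ybx1 and Hist2h2aa1 in 7, Hist1h2ai in 6, Ssb in 4 and Snora47 in 2.

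**Figure D4:**
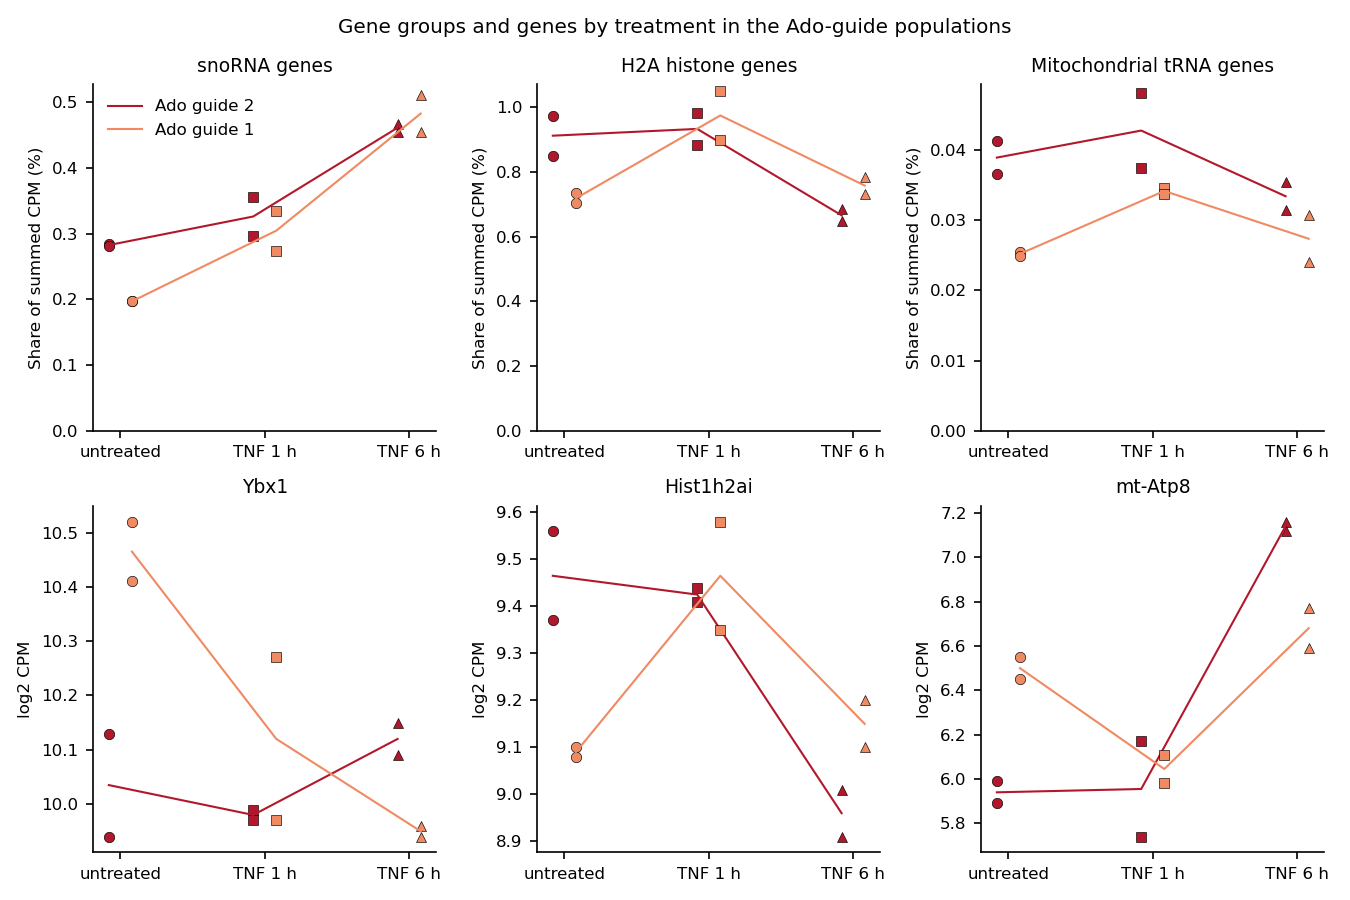
Share of summed CPM (top row, %) of 216 snoRNA, 20 H2A histone and 20 mitochondrial tRNA genes, and level (bottom row, log2 CPM) of Ybx1, Hist1h2ai and mt-Atp8, by treatment (horizontal axis) in Ado guide 2 (dark red) and Ado guide 1 (orange). Points are libraries and lines join the means of 2. The H2A share is higher in guide 2 untreated (0.974 and 0.850% against 0.734 and 0.703%) and lower at 6 h (0.685 and 0.647% against 0.784 and 0.732%).

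Genes of the TNF answer itself responded in both populations, and no difference between their responses was called. At 6 h, 480 genes were called in guide 2 cells (3.62%), 352 higher (2.65%) and 128 lower (0.964%), and 550 in guide 1 cells (4.14%), 391 higher (2.95%) and 159 lower (1.20%). Among 27 NF-kB feedback genes and subunits 14 were called higher in each population, and among 11 chemokines and cytokines 8 in each. Nfkbia, the inhibitor that returns NF-kB to the cytoplasm, had 7.46 and 7.46 log2 CPM in untreated guide 2 cells and 10.56 and 10.56 at 6 h, against 7.63 and 7.47 untreated and 10.61 and 10.59 at 6 h in guide 1 cells. Its response at 6 h was 3.09 ± 0.08 (log2, SE) in guide 2 and 3.06 ± 0.08 in guide 1 cells. Relb, an NF-kB subunit, had a response of 1.80 in both, and Vcam1, an adhesion molecule, of 2.51 in guide 2 and 2.43 in guide 1 cells. Cxcl10, which attracts T cells, had a response of 3.10 in guide 2 and 2.81 in guide 1 cells, each ± 0.17 (log2, SE), with an adjusted p of 0.923 for their difference in limma.

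At 1 h fewer genes passed, 22 in guide 2 cells (0.166%, all higher) and 75 in guide 1 cells (0.565%), of which 59 were higher (0.445%) and 16 lower (0.121%). Nfkbia had a response of 3.21 ± 0.08 (log2, SE) in guide 2 and 3.05 ± 0.08 in guide 1 cells at 1 h. Cxcl1, which attracts neutrophils, had a response of 4.95 in guide 2 and 4.53 in guide 1 cells, each ± 0.37 (log2, SE). Of the immediate-early and MAPK feedback list, 10 of 38 genes were called higher in guide 2 and 9 in guide 1 cells, among them Junb, a subunit of AP-1, at 2.38 and 1.98 and Zfp36, which shortens the life of cytokine mRNAs, at 2.55 and 2.62 log2 units in guide 2 and guide 1 cells. These populations share no libraries, so their responses are separate measurements. The 1 h and 6 h responses of 1 population share its untreated libraries. Of 216 snoRNAs 18 were called higher at 1 h in guide 1 cells, and of 20 H2A genes 11, against 0 of each in guide 2 cells. Guide 2 minus guide 1 had a median of 0.58 over snoRNAs and 0.29 over H2A genes untreated, against 0.06 and -0.13 at 1 h. The untreated difference thus enters these counts. The guide-by-TNF difference at 1 h was called for 0 genes of either class. The total of 75 in guide 1 cells was 17 without Ado guide 1 untreated replicate 2, 20 without Ado guide 1 TNF 1 h replicate 2, 35 without Ado guide 1 untreated replicate 1 and 386 without Ado guide 1 TNF 1 h replicate 1.

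Ccl2, the monocyte chemoattractant, had the widest gap at 1 h of the 3 chemokines plotted. It had 7.61 and 8.62 log2 CPM in guide 2 cells at 1 h, against 7.60 and 5.76 in guide 1 cells, and 5.98 and 5.70 untreated, against 6.06 and 5.65. Its response was 2.27 ± 0.36 (log2, SE, adjusted p = 0.00128, limma) in guide 2 and 0.83 ± 0.36 (adjusted p = 0.366) in guide 1 cells. The guide-by-TNF difference of 1.45 ± 0.51 (log2, SE) had an adjusted p of 0.711 in limma, and the low value of 5.76 was in the guide 1 library that stands apart. At 6 h the level was 9.83 and 9.71 log2 CPM in guide 2, against 9.82 and 10.09 in guide 1 cells. Csf1, the macrophage growth factor, behaved likewise, with 7.13 and 7.23 log2 CPM in guide 2 cells at 1 h, against 7.25 and 6.47 in guide 1 cells, the low value again in that library. Rgs16, a brake on G protein signals and a relative of the ADO substrates Rgs4 and Rgs5, had a response at 6 h of 3.91 ± 0.34 in guide 2 and 3.09 ± 0.34 in guide 1 cells (log2, SE, adjusted p of the difference 0.857, limma). Rgs4 and Rgs5 were not analysed here.

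**Figure D5:**
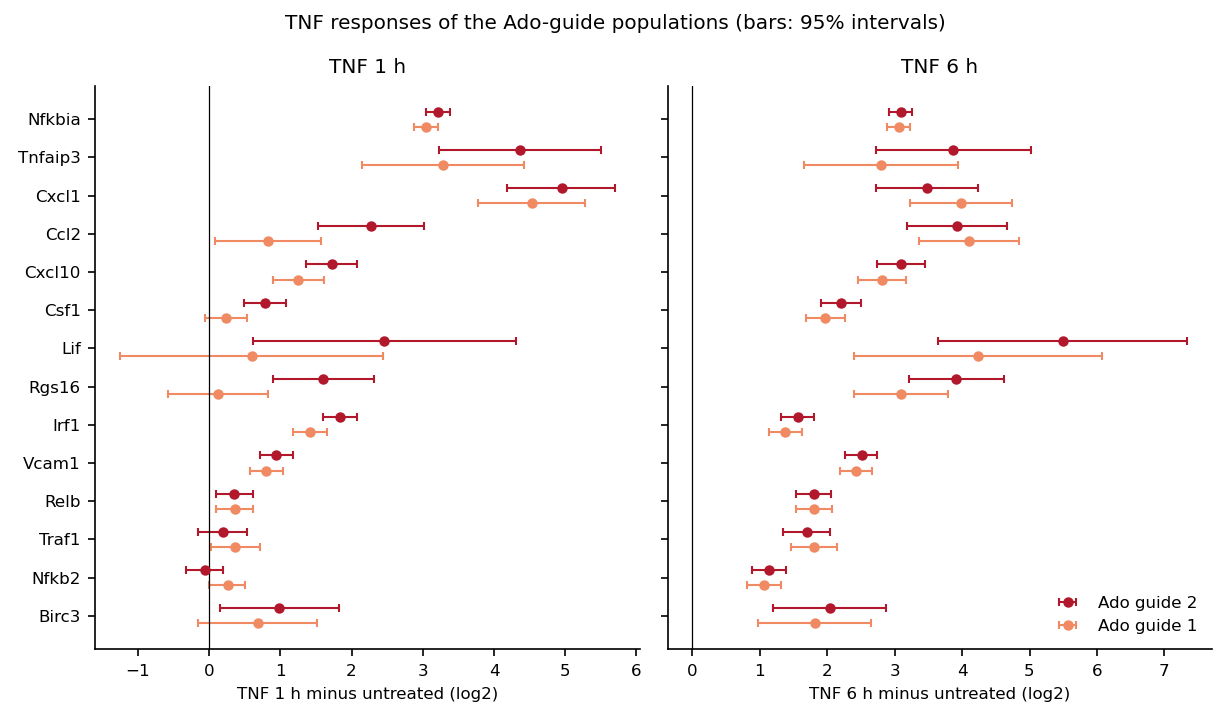
TNF response (horizontal axes, TNF minus untreated, log2) of 14 genes (vertical axis) at 1 h (left) and 6 h (right) in Ado guide 2 (dark red) and Ado guide 1 (orange) cells, with 95% intervals from limma as bars. Responses of Nfkbia lie together at 3.21 and 3.05 at 1 h and at 3.09 and 3.06 at 6 h, and Ccl2 is apart at 1 h (2.27 and 0.83) and together at 6 h (3.93 and 4.10).

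Interferon-stimulated genes, which cells switch on against viruses, did not reach the threshold for the average difference. Of 58 tested, 0 were called by limma, while at an unadjusted p below 0.05 11 were lower and 0 higher, beside 4.26% and 4.53% of all genes. The average difference was negative in 44 and positive in 14, with a median of -0.13 log2 units, beside 0.00 over all genes. Over all 13272 genes it was negative in 6767 and positive in 6505. By treatment the median was -0.21 untreated, -0.07 at 1 h and -0.06 at 6 h, and 13, 25 and 23 of the 58 had a positive difference. Over all genes 6637, 6243 and 6674 of 13272 did. Irf7, a transcription factor of the interferon response, ranged from 3.75 to 4.57 log2 CPM in guide 2 libraries (median 4.07) and from 4.43 to 4.81 in guide 1 libraries (median 4.60). Its difference was -0.53 ± 0.13 (log2, SE, adjusted p = 0.116, limma). Irf7 differed from the mean of the control guides by 0.13 in guide 2 cells (adjusted p = 0.576) and by 0.66 in guide 1 cells (log2, adjusted p = 0.00055, limma). Dhx58, a viral RNA sensor, had guide 2 libraries at 3.23 to 3.96 log2 CPM, all below the guide 1 libraries at 4.03 to 4.28, and a difference of -0.47 ± 0.13 (log2, SE, adjusted p = 0.173, limma). Guide 2 libraries lay wholly below guide 1 libraries in 32 of 13272 genes (0.241%). Isg15, a ubiquitin-like modifier, had 5.94 and 5.80 log2 CPM in untreated guide 2 cells, against 6.48 and 6.47 in guide 1 cells, a difference of -0.61 that passed without the TNF 1 h libraries (adjusted p = 0.0126, limma, 16 libraries) and not with them (adjusted p = 0.103). That call held in 4 of 8 fits that left out 1 more library. At 6 h Isg15 had 6.82 and 6.53 log2 CPM in guide 2 cells, against 6.64 and 6.27 in guide 1 cells, a difference of 0.22 that was not called. Ccl5, a chemokine induced by interferon and NF-kB, had an average difference of -0.28 ± 0.07 (log2, SE, adjusted p = 0.116, limma). The untreated guide 1 library with the highest immune marker sum had 3.98 as its mean over these 58 genes (log2 CPM) and its replicate 3.75, against 3.60 and 3.61 in untreated guide 2 libraries. Irf7, Dhx58, Isg15 and Ccl5 were named after their values were seen.

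For 44 genes that signal from TNF receptors or carry out cell death the median difference was -0.02, with 0 called by limma. At the unadjusted threshold 3 were higher and 0 lower, beside 4.53% and 4.26% of all genes. The 16 measured genes of thiol dioxygenases, cysteamine, taurine and coenzyme A had a median of -0.09, with 0 called and 1 each way at the unadjusted threshold. The 12 measured genes of the Arg/N-degron pathway, which degrades proteins that ADO has oxidised, had a median of 0.04, with 0 called and 0 either way at the unadjusted threshold. On chromosome 10, the 29 tested genes within 5 Mb of Ado had a median of -0.05, and 0 of them were called by limma, with 0 higher and 1 lower at the unadjusted threshold. The 216 genes before Ado had a median of -0.02 and the 371 after it of -0.01.

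Against the mean of the control guides, 706 genes were called in guide 2 cells (5.32%), 398 higher (3.00%) and 308 lower (2.32%), and 758 in guide 1 cells (5.71%), 411 higher (3.10%) and 347 lower (2.61%). Both comparisons use the same 12 control libraries, so values for single genes are set side by side. Cox6a2, the muscle-type subunit of cytochrome c oxidase, had a mean of 2.93 log2 CPM in guide 2 and 2.64 in guide 1 libraries, against 5.07 and 4.73 in control guide 2 and control guide 1 libraries. Guide 2 minus guide 1 was 0.29 for Cox6a2, with a 95% interval of 0.00 to 0.58. Sox9, a transcription factor of the intestinal crypt, had a mean of 7.47 log2 CPM in guide 2 and 7.45 in guide 1 libraries, against 8.05 and 8.09 in the controls, and guide 2 minus guide 1 was 0.02, with an interval of -0.09 to 0.14. Htra1, a secreted protease, had a mean of 4.71 log2 CPM in guide 2 and 4.39 in guide 1 libraries, against 6.13 and 5.14, and the interval of guide 2 minus guide 1 was 0.11 to 0.54 (adjusted p = 0.332, limma). Rhox5, a homeobox gene, had means of 7.41 log2 CPM in guide 2 and 7.28 in guide 1 libraries, against 7.37 in control guide 2 and 6.05 in control guide 1 libraries, so the control guides differed from each other. These 4 genes were chosen after their values were seen.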

How the data were processed

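Total RNA from 24 libraries of MC38 cells was measured by 3′ tag sequencing. Per the submitters' processing notes, FastQC, cutadapt 1.7, HISAT2, featureCounts, Subread and limma were used with builds GRCm38 and mm10, in an order and with settings not given in the sources used here. The authors deposited log2 CPM values, whose shared lowest (-3.35) and highest (17.04) value in every library is as after quantile normalisation. It forces equal distributions and hides global shifts. Tag depth was estimated from low values, and counting by strand is not stated.

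Genes at 0 log2 CPM or more in at least 4 libraries were kept (13272 of 15390). All 24 libraries were fitted with 12 means (limma 3.58.1, R 4.3.3, eBayes with trend, 12 residual degrees of freedom), with two-sided tests and Benjamini-Hochberg adjustment at 0.05 over all genes kept. A difference is called below that threshold. Named coding genes were those called for the average difference with 1 sign in all treatments and at least 2 log2 CPM, and the 5 smallest p of each guide-by-TNF term, unless said otherwise. The members, lists and tests were chosen with earlier results of these data known. Positions and sequences come from GENCODE M21 (15207 symbols matched to 1 gene), and similarity from blastn 2.17.0. Scripts were tested on simulated data. 1 called gene is counted but not reported here. For control guide 2 at TNF 1 h the titles and column names give opposite replicate numbers, and titles were followed. Alternatives covered filters, trend, weights, the replicate block, offsets, centring and left-out libraries.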

Additional observations from a re-analysis of the deposited data

How the results depend on the processing

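Under the alternatives tried, apart from leaving out single libraries, 113 counts of called genes stayed within 1.5 times the value reported and 47 moved by more. The average difference between the Ado guides (21 genes) called 0 genes in the 12 Ado-guide libraries alone, 0 with no trend, 0 with small RNA, histone and mitochondrial genes left out, 0 with untreated libraries left out, 1 in an additive model, 6 with TNF 6 h left out, 7 with median centring, 37 with array weights, 76 with TNF 1 h left out and 151 without the 3 libraries that stand apart. The untreated difference (16 genes) called 5, 0 and 1 under the first 3 of these, 36 with a robust fit, 118 with array weights, 210 with TNF 1 h left out and 228 without the 3 libraries. The TNF 6 h difference (1 gene) called 0 in the 12 libraries, with a strict filter, with an offset of 1 and with the replicate block, 2 with a robust fit or array weights and 5 with TNF 1 h or the 3 libraries left out. The TNF 1 h difference (0) called 156 without the 3 libraries.

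The guide-by-TNF difference (0 at each time and in the F test) called 49 at 1 h, 36 at 6 h and 147 in the F test without the 3 libraries, 33 at 6 h with TNF 1 h left out and 5 at 6 h with array weights. The TNF 1 h response of guide 1 cells (75) called 47 in the 12 libraries, 26 with no trend, 39 with the small RNA classes left out and 161 with array weights, and that of guide 2 cells (22) called 57 without the 3 libraries. The 6 h response of guide 2 cells (480) called 797 with array weights, 776 with TNF 1 h left out and 800 without the 3 libraries, and that of guide 1 cells (550) called 859 and 882 under the last 2. With no trend the control guides (612) called 295, and guide 2 and guide 1 against controls (706 and 758) called 353 and 403. A library left alone in its group was assumed to vary like the others.

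Replicate numbers did not pair the libraries: deviations of same-numbered Ado-guide libraries correlated at 0.0371 untreated, -0.0917 at 1 h and -0.0619 at 6 h across genes. With the replicate block, 47 genes were called on average (all 21 among them), 43 untreated and 0 at 6 h, and 48 for the 1 h response of guide 1 cells.

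Leaving out each Ado-guide library in turn gave 0 to 72 genes for the average, 0 to 26 untreated, 0 to 192 at 1 h, 0 to 4 at 6 h, 0 to 174 and 0 to 0 for the guide-by-TNF difference at 1 h and 6 h, 0 to 139 for the F test, 546 to 696 between control guides, 17 to 23 and 17 to 386 for the 1 h response of guide 2 and guide 1 cells, 280 to 499 and 340 to 583 at 6 h, and 382 to 797 and 387 to 857 against controls. The average call was 0 without Ado guide 2 untreated replicate 1 or TNF 6 h replicate 1, 2 to 12 without each of 7 others, 22 without Ado guide 2 TNF 1 h replicate 2, 34 without Ado guide 1 TNF 6 h replicate 1 and 72 without Ado guide 1 TNF 1 h replicate 1, where the library that stands apart is the 1 left. The untreated call was 0 without Ado guide 1 untreated replicate 2, 1 without Ado guide 2 untreated replicate 1 and 10 without Ado guide 1 untreated replicate 1. Gm23212 held in 10 of 12 such fits, mt-Tq in 9, Gm25291 and Gm24130 in 6 and Eef1a1 in 5. Depth limits genes near the floor, such as Zfp658 and Wdr47. The cause of these changes was not tested.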
